A study of Mus musculus with 24 samples.

Results

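Disease-associated microglia (DAM) genes are genes that microglia raise around dying neurons and protein deposits in models of neurodegeneration. The set described is 10 of the 24411 genes measured, chosen by name as well-known DAM genes: *Trem2*, *Tyrobp*, *Apoe*, *Lpl*, *Cst7*, *Itgax*, *Spp1*, *Axl*, *Clec7a* and *Gpnmb*. The study asked how the ALS mutation *SOD1* G93A changes the activation of glia. Polyadenylated RNA was sequenced from primary cultures of mouse microglia and astrocytes, in 8 groups of 3 samples, of which 7 are described. A group of *SOD1* G93A microglia under PBS was not analysed here. The 3 microglial groups described were wild-type (WT) cells under PBS (quiescent), WT cells under 50 ng/mL LPS, a bacterial lipopolysaccharide, and *SOD1* G93A cells under the same dose of LPS. Astrocytes formed 4 groups, WT and *SOD1* G93A cells under PBS (quiescent) and both genotypes activated with 3 ng/mL IL-1α, 30 ng/mL TNFα and 400 ng/mL C1q. The labels give no length of treatment.

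Several features limit these groups as models. Per the study's methods, microglia were sorted with Cd11b beads from perfused brains between the seventh and the tenth postnatal day, and astrocytes were immunopanned from forebrain at the fifth postnatal day. That panning removed CD45-positive microglia, endothelial cells and the oligodendrocyte lineage before astrocytes were captured on HepaCAM. Both were then kept in serum-free medium, the microglial one with TGF-β2, IL-34 and cholesterol. The *SOD1* G93A mice, which carry a human transgene, came from Jax and were bred into C57BL/6J. That human transgene is not among the genes measured, and mouse *Sod1*, at 132 to 336 RPM (reads-per-million, its reads scaled to the library's total) over all libraries, did not separate the genotypes. Libraries held between 2016139 and 11570122 reads (median 5098168), and these totals set the precision of the low values below. Nothing in the labels says whether the replicates of a group are separate animals or cultures, so each p-value measures the spread between these libraries. Throughout, a gene is called when its adjusted p from limma is under 0.001 and its change exceeds 2-fold.

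Microglia hold a receptor pair, TREM2 and its adaptor TYROBP, at the cell surface, where TREM2 binds lipids and lipoproteins such as APOE and passes the signal on through SYK. In mouse models of neurodegeneration the DAM program is described as a first stage that does not need TREM2 and a later stage that does, while genes of resting microglia such as *P2ry12* and *Tmem119* go down. LPS drives a different activation through TLR4, and the cytokine mix given to the astrocytes is known for producing neurotoxic reactive astrocytes.

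One library stood apart from its group. In the *SOD1* G93A LPS microglia, replicate 3 differed by more than 2-fold from the mean of the other two in 5.20% of 10679 genes (555 genes). The other 5 libraries of that comparison did so in 1.13% to 2.06% of the genes. Its *Lpl* level was 681 RPM against 198 and 193 in replicates 1 and 2, and its *Itgax* level was 62.3 against 18.6 and 21.2. *Clec7a* stood at 782 RPM in it against 420.5 and 417, while *Gpnmb* stood at 339.6 against 536 and 532. *Cst7* was lower there as well, at 39.8 RPM against 61.5 and 59.7. Where stated, results on *SOD1* G93A LPS microglia were recomputed without this library.

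*Trem2* and *Tyrobp*, the receptor and its adaptor, averaged 527 and 502 RPM over 3 libraries in WT quiescent microglia. *Trem2* averaged 50.1 RPM in *SOD1* G93A LPS microglia and 38.3 in WT LPS microglia, without overlap between the 3 microglial groups. *Tyrobp* averaged 192 and 179 RPM in those LPS groups, whose libraries overlapped. Means of the 4 astrocyte groups ran from 7.44 to 11.4 RPM for *Trem2* and from 7.31 to 13.6 for *Tyrobp*, and single libraries from 4.52 to 13.2 and from 2.98 to 13.7. For either gene, the *SOD1* G93A quiescent astrocytes had the highest astrocyte mean, and the other 3 astrocyte groups overlapped in order of their means.

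The lipid genes parted from each other. *Apoe*, which encodes the main apolipoprotein of glia, had a similar mean RPM in WT quiescent astrocytes and in microglia. A difference between these cell types was not tested. Its mean was 2631 RPM in WT quiescent astrocytes, 2553 in WT LPS microglia, 2545 in WT quiescent microglia and 2468 in *SOD1* G93A LPS microglia, and neighbours in this order overlapped. Below them stood *SOD1* G93A quiescent astrocytes at 2172, WT activated astrocytes at 1657 and *SOD1* G93A activated astrocytes at 1442 RPM, each apart from its neighbours. *Lpl*, which encodes lipoprotein lipase, averaged 1529 RPM in WT quiescent microglia, 357 in *SOD1* G93A LPS microglia (195 without replicate 3) and 138 in WT LPS microglia, without overlap. Its astrocyte means lay between 30.1 and 53.6 RPM, and neighbours overlapped.

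*Spp1*, which encodes the secreted ligand osteopontin, averaged 3442 RPM (SD 546, n = 3) in WT quiescent microglia. In the next 4 groups neighbours overlapped. WT LPS microglia stood at 674 (SD 68.8), *SOD1* G93A LPS microglia at 655 (SD 133), WT activated astrocytes at 644 (SD 55.2) and *SOD1* G93A activated astrocytes at 556 (SD 33.6) RPM. Quiescent astrocytes stood far below, at 79.2 in *SOD1* G93A and 53.5 in WT cells. *Axl*, a receptor tyrosine kinase that binds dead cells through its ligand GAS6, averaged 1050.4 RPM in WT quiescent microglia, then 605 and 569 in the WT and *SOD1* G93A LPS groups, which overlapped. Activated astrocytes held 285 and 265 RPM of it, and quiescent astrocytes 157 and 146.

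*Clec7a*, the β-glucan receptor dectin-1, was the member with its highest mean in *SOD1* G93A LPS microglia, at 539.7 RPM against 304 in WT LPS and 245 in WT quiescent microglia, without overlap. *Cst7*, the cystatin F inhibitor of lysosomal proteases, averaged 55.8 and 53.7 RPM in the WT and *SOD1* G93A LPS groups, which overlapped, and 14.6 in WT quiescent microglia. *Itgax*, the CD11c integrin subunit, averaged 48.2 RPM in WT quiescent microglia, 34.0 in *SOD1* G93A LPS and 17.0 in WT LPS microglia, with overlap between neighbours. Without replicate 3 the *SOD1* G93A mean was 19.9 and did not overlap with WT quiescent microglia. *Gpnmb*, a glycoprotein of lysosomes and the cell surface, averaged 662, 562 and 469 RPM in WT quiescent, WT LPS and *SOD1* G93A LPS microglia, in that order and without overlap. Astrocyte group means lay between 7.18 and 13.2 RPM for *Clec7a* and between 17.2 and 31.6 for *Gpnmb*, and single libraries between 5.57 and 16.4 and between 14.3 and 37.7. *Cst7* and *Itgax* rested on 1 to 31 reads per astrocyte library there.

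Without replicate 3 the other means of *SOD1* G93A LPS microglia were 419 RPM for *Clec7a*, 534 for *Gpnmb*, 60.6 for *Cst7*, 47.0 for *Trem2*, 172 for *Tyrobp*, 2521 for *Apoe*, 579 for *Spp1* and 631 for *Axl*. *Spp1* then no longer overlapped with WT LPS microglia, and *Trem2*, *Lpl*, *Clec7a* and *Gpnmb* still did not.

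**Figure D1:**
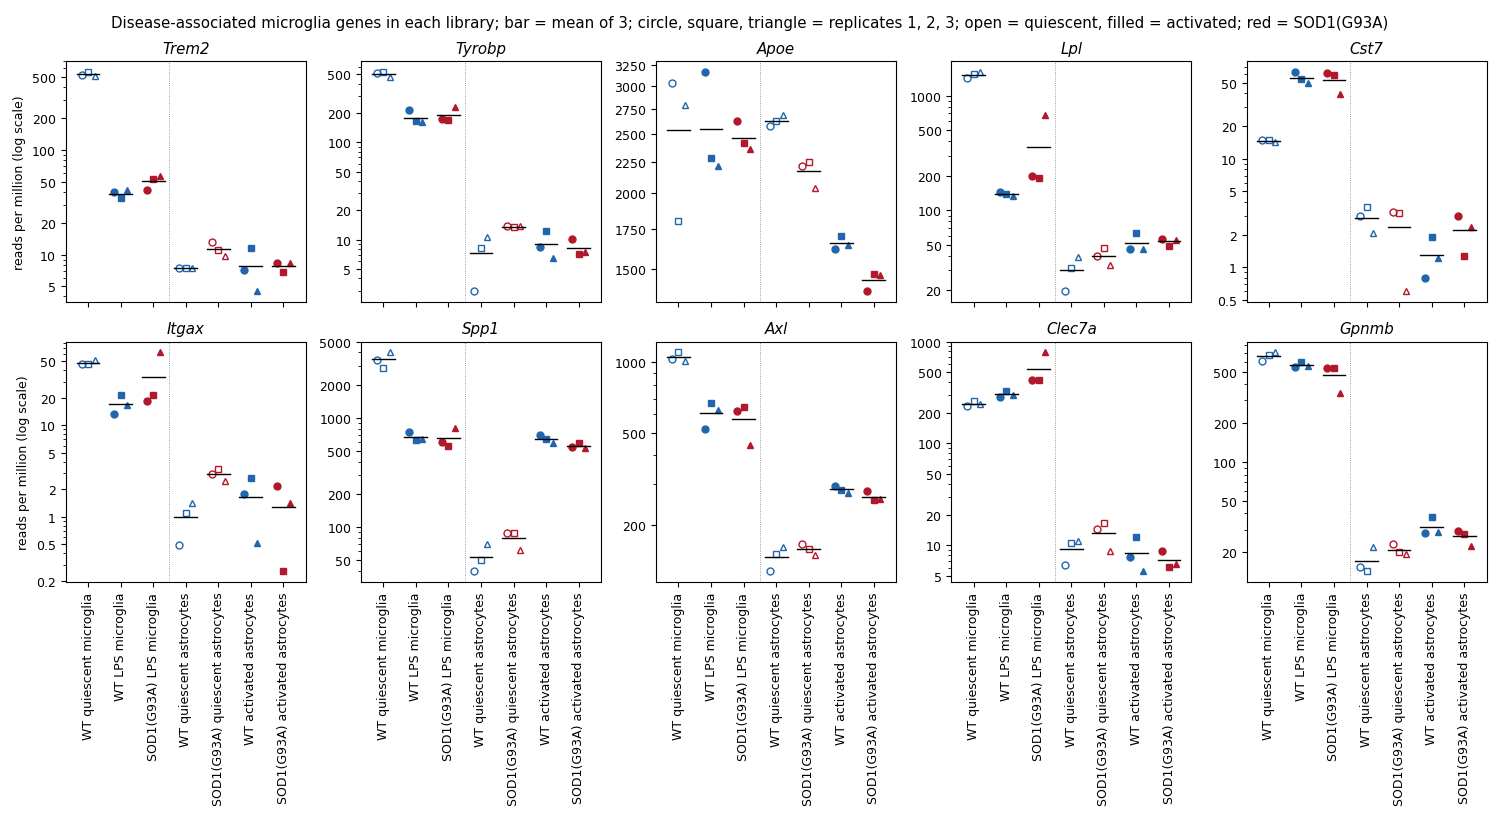
Level of each DAM gene in RPM (log scale) in the 7 conditions. Circle, square and triangle are replicates 1, 2 and 3, the bar is their mean, open symbols are quiescent, filled symbols activated and red symbols *SOD1* G93A. *Trem2* averages 527 in WT quiescent microglia and 38.3 in WT LPS microglia, while *Apoe* averages 2545 in WT quiescent microglia and 2631 in WT quiescent astrocytes.

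Levels can be compared between genes only per kilobase of exon, and these lengths are unions of all annotated exons, which may exceed the transcript made. On that scale WT quiescent microglia held 2088 RPM per kilobase of *Spp1*, 1190.3 of *Apoe*, 752 of *Tyrobp*, 209 of *Axl*, 146 of *Lpl*, 107 of *Trem2*, 102 of *Gpnmb*, 92.9 of *Clec7a*, 14.9 of *Cst7* and least of *Itgax*. Under LPS the WT order began with *Apoe* at 1194 and *Spp1* at 409, and *Trem2* came next to last at 7.75, before *Itgax* at 3.54. In *SOD1* G93A LPS microglia *Clec7a* reached 205 RPM per kilobase (159 without replicate 3), next after *Apoe* at 1154, *Spp1* at 397 and *Tyrobp* at 288. In WT quiescent astrocytes *Apoe* reached 1231, and the next member, *Spp1*, 32.5. In WT activated astrocytes *Apoe* reached 775 and *Spp1* 391.

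LPS against quiescence in WT microglia asks what TLR4 activation does to the set. All 10 genes passed the filter of a mean normalized count of 10, and 6 were called, beside 20.8% of the 10866 genes tested. Of them 1 was higher, beside 10.2% of all genes, and 5 were lower, beside 10.6%. The groups did not overlap for 8 members, beside 64.6% of all genes. The median change of the members was −0.93 on the log2 scale, and that of all genes 0.00. Scaling to RPM, an alternative chosen after seeing the data, moved the median of all genes to −0.209. It turned the split of 1110 higher and 1153 lower into 903 and 1484. The same 6 members were called under that scaling, by edgeR and by DESeq2.

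The receptor fell most. Normalized counts of *Trem2* were 2669.8, 2962 and 2687 in the quiescent libraries and 235, 216 and 250.02 in the LPS libraries. Each LPS library lay an order of magnitude below each quiescent one. Its log2 change was −3.56 (SE 0.0895, limma adjusted p 3.45e-10), or 11.8-fold lower. The adaptor *Tyrobp* had 2634, 2811 and 2469.6 normalized counts when quiescent and 1266, 1028 and 984 under LPS. The groups were well apart here too, by a smaller factor. The log2 change was −1.28 (SE 0.106, limma adjusted p 2.42e-06), so the adaptor stood 2.42-fold lower and the receptor 11.8-fold lower. A difference between those genes' changes was not tested.

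*Lpl* fell nearly as far as *Trem2*, and *Apoe* was not called. Normalized counts of *Lpl* were 7418, 8293 and 8414 in quiescent and 858, 864 and 806 in LPS microglia. The LPS libraries lay close together and far below the others. This was a log2 change of −3.25 (SE 0.0810, limma adjusted p 3.3e-10), or 9.52-fold lower. *Apoe* had 15663, 9663 and 14683 normalized counts in quiescent and 18844, 14316 and 13476 in LPS libraries. Those groups overlapped, with quiescent replicate 2 as the lowest library. That gave a log2 change of 0.24 (SE 0.182, limma adjusted p 0.291), and under quantile normalization it was −0.32.

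*Spp1* had 17719, 15547 and 20960.1 normalized counts when quiescent and 4491.5, 3926 and 3914 under LPS. Every LPS library was below every quiescent one. Limma gave a log2 change of −2.13 (SE 0.114, limma adjusted p 7.92e-08), or 4.37-fold lower. *Itgax* had 243, 248 and 269 normalized counts when quiescent and 80.0, 133 and 100.3 under LPS. Its LPS libraries were spread but below the quiescent ones. The fit put its log2 change at −1.30 (SE 0.169, limma adjusted p 7.94e-05), or 2.46-fold lower. Without the intensity trend in limma its adjusted p was 0.00114, past the limit, and over all alternatives it ran from 4.52e-11 to 0.00114.

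The member called higher was *Cst7*. Its normalized counts were 76.1, 79.9 and 74.9 in quiescent and 374, 343 and 305 in LPS microglia. Each LPS library stood far above each quiescent one. The log2 change was 2.13 (SE 0.116, limma adjusted p 9.58e-08).

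A further pair of receptors had groups that did not overlap and changes under 2-fold. *Axl* had 5344, 5922 and 5310.0 normalized counts when quiescent and 3093, 4208 and 3797 under LPS, all lower. Its log2 change was −0.59 (SE 0.112, limma adjusted p 0.00119). *Clec7a* had 1205, 1397 and 1267 normalized counts when quiescent and 1704, 2064 and 1803.5 under LPS, all higher. That gave a log2 change of 0.52 (SE 0.0963, limma adjusted p 0.000927). *Gpnmb* overlapped on the authors' scale, though not in RPM, with 3133, 3602 and 3707 normalized counts against 3229, 3712 and 3354 and a log2 change of −0.02 (SE 0.0921, limma adjusted p 0.876).

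Genes around the members were followed in lists, some of which share genes. Of 7 other stage 1 DAM genes, 3 were called higher and 2 lower, with a median log2 change of −0.47. The largest were *Timp2* at −2.82, *H2-D1* at 2.27 and the protease gene *Ctsd* at −2.26 (limma adjusted p 8.65e-09, 2.14e-09 and 8.06e-09). All 17 other stage 2 DAM genes were tested, and 5 were called higher and 5 lower, with a median of 0.53. *Ank* stood at −3.71, *Cadm1* at −2.12 and the fatty-acid carrier *Fabp5* at 1.74. DAM genes thus moved in both directions in either stage.

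Homeostatic microglia genes moved one way when called. Of 17 tested of 18, 14 were called lower and 0 higher in limma, with a median log2 change of −2.06. At an unadjusted p under 0.05, 16 of the 17 passed, beside 6694 of all 10866 genes. *Tmem119* fell by 4.62, *P2ry12* by 3.81 and *P2ry13* by 3.69 on the log2 scale (limma adjusted p 5.32e-10, 1.83e-08 and 1.03e-08).

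Signalling behind the receptors was mixed. In the ITAM pathway of TREM2-TYROBP and CLEC7A, 15 of 16 genes were tested, 3 were called higher and 4 lower, and the median was 0.28. *Malt1* rose by 3.47 and the kinase gene *Syk* by 2.63, and the phosphatase gene *Inpp5d* fell by 1.75 on the log2 scale. Of 5 other receptors that pair with TYROBP, 3 were tested. *Trem1* was called higher at 2.19 and *Clec5a* lower at −1.75 on the log2 scale, around a median of −0.19. In the lipid list, 16 of 18 genes were tested, 4 were called higher and 4 lower, with a median of −0.19. *Angptl4*, an inhibitor of LPL, fell by 2.77 (adjusted p 6.61e-05), the scavenger receptor gene *Cd36* rose by 2.46 and the APOE receptor gene *Lrp1* fell by 2.40 in limma.

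Partners and relatives of the other members followed in part. Of 4 genes for sister receptors of AXL and ligands of this receptor family, 3 were called lower. They were the ligands *Gas6* at −3.22 and *Pros1* at −3.08 and the receptor *Mertk* at −1.16. The median of the 4 genes was −2.12. Of 12 genes for CD11c-related integrins and osteopontin receptors, 11 were tested, 3 were called higher and 3 lower, with a median of −0.27. *Itgb3* stood at −3.66, *Itgb5* at −3.11 and *Itgal* at 2.63 on the log2 scale. Of 12 cathepsins, legumain and other cystatins, the proteases and relatives of cystatin F, 2 were called higher and 3 lower, with a median of −0.48. *Ctsd* stood at −2.26, *Ctsc* at 1.74 and *Lgmn* at −1.73. Of 4 MITF and TFE factors, which drive lysosomal genes and *Gpnmb*, *Tfec* was called higher at 1.88 and *Tfeb* lower at −1.93, with a median of 0.39.

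Cell type markers were followed beside these changes, and their part in the results was not tested. In bulk RNA, fewer cells of a type and less RNA per cell cannot be told apart. All 17 microglia markers had reads in every library, and they summed to 16911, 18085 and 16759.8 RPM in WT quiescent microglia and to 6490.5, 6191 and 6135 in WT LPS microglia. Of the 17, 9 were called lower and 0 higher by limma, with a median log2 change of −1.35, and 15 had an unadjusted p under 0.05, beside 6694 of all genes. *Laptm5* was the most abundant in all quiescent libraries, and *C1qb*, *Laptm5* and *Itgam* were so in LPS replicates 1, 2 and 3. The 14 astrocyte markers summed to 898 to 949 RPM in quiescent and 348 to 454 in LPS microglia, with *Glul*, which microglia also express, the most abundant, and *S100b* was at 0 in the WT LPS group. Of 12 tested, *Gja1* (2.72) and *Slc1a2* (2.28) were called higher and *Glul* (−1.83) lower.

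The 11 oligodendrocyte lineage markers summed to 1349 to 1388 RPM in quiescent and 143 to 145 in LPS WT microglia, with *Mog* and *Mobp* at 0 in the quiescent group. *Cspg4* alone made up 1202.5, 1238 and 1247 RPM of the quiescent sums and 61.3, 66.9 and 68.5 of the LPS sums. Of 6 markers tested, *Cspg4* (−4.01) and *Mbp* (−2.21) were called lower. The 9 endothelial markers summed to 83.8 to 94.9 and 51.2 to 64.7 RPM, with *Cldn5*, *Tek* and *Emcn* at 0. Of 4 tested, 2 were called higher and 2 lower, among them *Pecam1* (4.17), *Flt1* (−3.47) and *Vwf* (−1.17). The call of *Vwf* was lost without quiescent replicate 1, 2 or 3 (adjusted p 0.00181, 0.00397 and 0.00287) or LPS replicate 3 (0.00248) and without the intensity trend (0.00215), in a range of 1.05e-05 to 0.00397 over all alternatives.

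The 10 pericyte and fibroblast markers summed to 24.3 to 37.7 RPM in WT microglia, with *Kcnj8* at 0, and of 5 tested *Dcn* (4.98) was called higher. The 8 neuron markers summed to 9.61 to 18.4, and the 1 marker tested was not called. The 10 markers of border macrophages and monocytes summed to 41.5 to 44.7 RPM in quiescent and 184 to 243 in LPS microglia. *Lyve1* and *Cd163* were at 0 in both groups. *Ms4a7* alone made up 35.3, 36.1 and 33.1 RPM of the quiescent sums and 224, 166 and 165 of the LPS sums. Of 5 tested, *Ly6c2* (4.58), *Ms4a7* (2.60) and *Ccr2* (1.82) were called higher. The call of *Ccr2* was lost in 6 of 16 alternatives, which were without quiescent replicate 1 or 2 (adjusted p 0.0038 and 0.00301) or LPS replicate 2 or 3 (0.00401 and 0.0032), under RPM scaling (1.62, 0.00147) and without the intensity trend (0.00234), in a range of 1.43e-05 to 0.00401.

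*SOD1* G93A LPS microglia were also set against WT quiescent microglia. That comparison differs in genotype and stimulus together and shares its 3 quiescent libraries with the WT comparison, so the values stand side by side as a description. Of the 10 members, 5 were called, beside 15.7% of the 10921 genes tested. Higher were 2, beside 8.22% of all genes, and lower were 3, beside 7.51%. The groups did not overlap for 7, beside 62.6%. The median change was −0.59 on the log2 scale, against 0.01 over all genes. RPM scaling moved the median of all genes to −0.211 and the split of 898 higher and 820 lower to 757 and 1114. Under it 4 members were called.

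*Trem2* had 2833, 3148 and 2851 normalized counts in the quiescent libraries and 275, 345 and 357 in the *SOD1* G93A LPS libraries. All of the latter were far lower. This was a log2 change of −3.18 (SE 0.105, limma adjusted p 6.01e-08), or 9.07-fold lower, beside −3.56 in WT cells. *Tyrobp* had 2795, 2987 and 2620.5 normalized counts when quiescent and 1169, 1109 and 1461 under LPS. Replicate 3 was the highest of the LPS libraries and still below the quiescent ones. Limma gave a log2 change of −1.18 (SE 0.107, limma adjusted p 2.42e-05), beside −1.28 in WT cells.

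*Spp1* had 18804, 16523 and 22240.5 normalized counts when quiescent and 4037, 3618 and 5093 under LPS, all lower. The fit put its log2 change at −2.18 (SE 0.145, limma adjusted p 3.46e-06), beside −2.13 in WT cells. *Cst7* had 80.8, 85.0 and 79.5 normalized counts when quiescent and 409.9, 391 and 252 under LPS. Replicate 3 was the lowest LPS library and still above the quiescent ones. Its log2 change was 2.06 (SE 0.176, limma adjusted p 1.63e-05).

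*Clec7a* had 1279, 1485 and 1344 normalized counts when quiescent and 2802, 2728 and 4947 under LPS. All LPS libraries were higher, and replicate 3 stood above the other two. The log2 change was 1.30 (SE 0.203, limma adjusted p 0.000656), or 2.46-fold, beside 0.52 in WT cells. The call was lost without quiescent replicate 1, 2 or 3, at 1.25, 1.36 and 1.28 (adjusted p 0.00476, 0.00463 and 0.00424), under quantile normalization (1.04, 0.00295), under RPM scaling (1.07, 0.00253) and without the intensity trend (0.00576). Over all alternatives its adjusted p ran from 1.54e-10 to 0.00576.

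Calls of *Lpl* and *Itgax* differed without replicate 3. *Lpl* had 7872, 8814 and 8928 normalized counts when quiescent and 1319, 1259.8 and 4310 under LPS. Every LPS library was lower, replicate 3 by the smallest factor. The log2 change of −2.14 (SE 0.399) had a limma adjusted p of 0.00179 and was not called. Without replicate 3 it was −2.72 (adjusted p 2.61e-13) and called, and with replicate 3 kept it was called under quantile normalization (−2.41, 0.000813) and with the replicate block (0.000781). Its adjusted p ran from 2.61e-13 to 0.0134 over all alternatives. *Itgax* had 257, 264 and 285 normalized counts when quiescent and 124, 139 and 395 under LPS. Replicate 3 was the highest of the 6 libraries and made the groups overlap. This was a log2 change of −0.50 (SE 0.369, limma adjusted p 0.283), and without replicate 3 it was −1.03 (adjusted p 8.53e-07) and called, within a range of 8.53e-07 to 0.685.

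Without replicate 3, 7 members were called, 2 higher and 5 lower, beside 20% of 10938 genes. *Trem2* stood at −3.25, *Tyrobp* at −1.30, *Spp1* at −2.32, *Cst7* at 2.28 and *Clec7a* at 1.02 on the log2 scale in that fit. Without quiescent replicate 1, 2 or 3 the count was 4 in each case, beside 1288 of 10896, 1263 of 10899 and 1304 of 10902 genes. With the intensity trend left out it was 4 as well, beside 1346 of 10921 genes. *Axl* had lower counts in all LPS libraries (4112, 4222 and 2810.1 against 5671, 6294 and 5634 normalized counts) and a log2 change of −0.68 (SE 0.146, limma adjusted p 0.0039). *Apoe* stood at 0.21 (adjusted p 0.323) and *Gpnmb* at −0.30 (0.188) in limma, both with overlapping groups, and at 0.26 and −0.06 without replicate 3.

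The lists were counted in the same way. Other stage 1 DAM genes had 3 called higher and 2 lower of 7 and a median of 0.00, with *Timp2* at −2.54, *H2-D1* at 2.01 and *Ctsd* at −1.88. Other stage 2 DAM genes had 4 called higher and 3 lower of 17 and a median of 0.64, with *Ank* at −3.56, *Cadm1* at −2.03 and *Cd52* at 1.91. Homeostatic genes had 13 called lower and 1 higher of 17 and a median of −1.68, with *Gpr34* at −4.26, *Tmem119* at −4.09 and *P2ry13* at −3.61. The 1 called higher was *Cd33* (1.24, limma adjusted p 5.63e-05), named after its value was seen.

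Of 15 ITAM genes tested, 3 were called higher and 3 lower, with *Malt1* at 3.39, *Syk* at 2.71 and *Inpp5d* at −1.45 and a median of 0.17. Among 3 receptors that pair with TYROBP, *Trem1* (2.02) was called higher and *Clec5a* (−1.28) lower, with a median of 0.13. The call of *Clec5a* was lost without quiescent replicate 1, 2 or 3 (adjusted p 0.00334, 0.00475 and 0.00299) or LPS replicate 1 or 2 (0.002 and 0.0017) and without the intensity trend (0.00458), in a range of 2.84e-11 to 0.00475. Of 16 lipid genes, 3 were called higher and 2 lower, with *Cd36* at 2.46, *Lrp1* at −2.25 and *Nr1h3* at 2.02 and a median of −0.04. The call of *Cd36* was lost without the intensity trend (adjusted p 0.00113, in a range of 1.94e-12 to 0.00113). The call of *Nr1h3* was lost in 7 of 16 alternatives, which were without quiescent replicate 1 or 3 (adjusted p 0.00387 and 0.00298) or LPS replicate 1 or 2 (0.00377 and 0.00256), under RPM scaling (0.00104), with the replicate block (0.00176) and without the intensity trend (0.00189), in a range of 1.9e-07 to 0.00387.

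The AXL list had 2 called lower of 4, *Gas6* (−2.98) and *Pros1* (−2.47), with a median of −1.87. Integrins had 3 called higher and 3 lower of 11 and a median of −0.00, with *Itgb3* at −3.33, *Itgal* at 3.01 and *Itgb5* at −2.71. Of 12 cathepsins and relatives, 1 was called higher and 3 lower, with *Ctsc* at 1.93, *Ctsd* at −1.88 and *Lgmn* at −1.58 and a median of −0.29. Of the 4 MITF and TFE factors, *Tfec* (2.19) was called higher and *Tfeb* (−1.60) lower, with a median of 0.52. The call of *Tfec* was lost without quiescent replicate 1, 2 or 3 (adjusted p 0.00244, 0.00306 and 0.00198) or LPS replicate 1 (0.00105) and without the intensity trend (0.00161), in a range of 1.31e-07 to 0.00306.

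Microglia markers in the *SOD1* G93A LPS libraries summed to 6715, 6614 and 8634 RPM, highest in replicate 3, with *Laptm5* the most abundant in replicates 1 and 2 and *Csf1r* in replicate 3. Of the 17, 9 were called lower and 0 higher against WT quiescent microglia, with a median of −1.20, and 14 had an unadjusted p under 0.05, beside 6468 of all 10921 genes. Astrocyte markers (383 to 457 RPM) had *Gja1* (2.93) and *Slc1a2* (2.07) called higher and *Glul* (−1.61) lower of 12. Oligodendrocyte markers (185 to 280.0) had *Cspg4* (−2.95) and *Mbp* (−1.97) lower of 6, with *Mog* at 0. *Cspg4* made up 112, 107 and 212 RPM of these sums in replicates 1, 2 and 3. Endothelial markers (33.9 to 64.6) had *Pecam1* (4.04) higher and *Flt1* (−3.31) and *Vwf* (−1.11) lower of 4, with *Cldn5*, *Tek*, *Emcn* and *Esam* at 0. Pericyte and fibroblast markers (22.0 to 33.3) had *Dcn* (4.31) higher of 5, with *Kcnj8* and *Vtn* at 0, and neuron markers (9.89 to 15.3) had 0 called of 1, with *Syt1* at 0. Border macrophage and monocyte markers (150.1 to 198) had *Ly6c2* (3.94) and *Ms4a7* (2.40) higher of 5, with *Lyve1* and *S100a9* at 0. *Ms4a7* made up 184, 169 and 127 RPM of these sums in replicates 1, 2 and 3. Some of these calls were lost under alternatives. That held for *Pecam1* without quiescent replicate 1 or 3 (adjusted p 0.00387 and 0.00245) or LPS replicate 1 or 2 (0.00324 and 0.00357) and without the intensity trend (0.00422), in a range of 2.06e-06 to 0.00422. It held for *Vwf* without quiescent replicate 1, 2 or 3 (0.00246, 0.00499 and 0.00497) or LPS replicate 1 or 2 (0.00286 and 0.00332), with the replicate block (0.00125) and without the intensity trend (0.00192), in a range of 9.75e-06 to 0.00499. *Dcn* lost its call in 12 of 16 alternatives, in a range of 4.11e-07 to 0.00789. Among them were those without quiescent replicate 1, 2 or 3 (0.00528, 0.00644 and 0.00115) or LPS replicate 1 or 2 (0.00789 and 0.00735). *Ly6c2* lost its call without quiescent replicate 1, where its adjusted p reached the limit. It was also not among the genes called without LPS replicate 3.

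Leaving replicate 3 out changed some list values in this comparison. Medians were then −0.50 and 0.63 for other stage 1 and stage 2 DAM genes, −1.66 for homeostatic, 0.24 for ITAM, 0.15 for TYROBP-pairing, −0.13 for lipid and −1.97 for AXL genes, −0.18 for integrins, −0.35 for cathepsins and 0.57 for MITF and TFE factors. Called higher and lower were 3 and 4 ITAM genes, 3 and 4 lipid genes, 0 and 3 genes of the AXL list and 4 and 3 integrins. The other gene lists kept their counts. Microglia markers had a median of −1.30, with 9 called lower and 0 higher and 15 at an unadjusted p under 0.05, beside 7051 of all 10938 genes. Border macrophage and monocyte markers had 1 called higher (*Ms4a7*) and 1 lower (*Mrc1*) of 4, and the other marker lists kept their counts of calls.

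Genotype under LPS was compared directly, with WT LPS microglia as the reference. By limma, 0 of the 10 members were called, beside 0% of the 10679 genes tested, and 3 members had an unadjusted p under 0.05. Over all genes 930 had an unadjusted p under 0.05, edgeR called 0 and DESeq2 called 2. The groups did not overlap for 3 members, beside 18.2% of all genes, and the median change was 0.04 against 0.01.

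Those 3 were *Trem2*, *Lpl* and *Clec7a*, each higher in the mutant. *Trem2* had 233, 215 and 250.04 normalized counts in WT and 256, 323 and 336 in *SOD1* G93A LPS microglia. The lowest mutant library stood just above the highest WT one. The log2 difference was 0.38 (SE 0.134, limma adjusted p 0.571), and 0.31 without replicate 3. *Lpl* had 852, 857 and 806 normalized counts in WT and 1227, 1181 and 4058 in mutant libraries. Replicate 3 was more than 3 times as high as its fellows. The log2 difference was 1.11 (SE 0.404, limma adjusted p 0.571), and 0.52 without that library (adjusted p 0.356, in a range of 0.356 to 0.691).

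*Clec7a* had 1692, 2047 and 1804 normalized counts in WT and 2607, 2557 and 4658 in mutant libraries. All mutant libraries were higher, with replicate 3 on top. The log2 difference was 0.77 (SE 0.218, limma adjusted p 0.571), and 0.49 without replicate 3 (adjusted p 0.608, in a range of 0.0944 to 0.691). *Itgax*, at 79.5, 132 and 100.3 against 115, 129.9 and 371 normalized counts, overlapped, with a log2 difference of 0.80 (SE 0.402, limma adjusted p 0.586) and 0.26 without replicate 3. The remaining 6 members lay between −0.28 (*Gpnmb*) and 0.10 (*Tyrobp*), all with overlapping groups in normalized counts (in RPM *Gpnmb* did not overlap), and *Gpnmb* stood at −0.05 without replicate 3.

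Every list had 0 genes called by limma between the genotypes under LPS, with 0 to 4 genes per list at an unadjusted p under 0.05. Medians were 0.09 for other stage 1 and 0.07 for other stage 2 DAM genes, 0.08 for ITAM genes and 0.08 for TYROBP partners. They were 0.14 for lipid genes, 0.26 for AXL genes, 0.21 for integrins, 0.09 for cathepsins and 0.27 for MITF and TFE factors. Homeostatic genes had a median of 0.29, and 16 of 16 tested were above 0. The 17 microglia markers had a median of 0.17, with 13 above 0. Medians of the other marker lists were −0.14 for astrocytes, −0.04 for oligodendrocyte lineage, −0.04 for endothelial cells, −0.32 for pericytes and fibroblasts, 0.23 for neurons (1 gene) and −0.21 for border macrophages and monocytes.

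Without replicate 3 every list again had 0 genes called between the genotypes under LPS. Homeostatic genes then had a median of 0.23 with 14 of 16 above 0, and microglia markers 0.05 with 11 of 17 above 0. Medians were −0.01 for other stage 1 and for other stage 2 DAM genes, 0.03 for ITAM, 0.20 for TYROBP-pairing, 0.01 for lipid and 0.19 for AXL genes, 0.21 for integrins, 0.05 for cathepsins and 0.17 for MITF and TFE factors. The other marker lists stood at 0.15 for astrocytes, 0.05 for oligodendrocyte lineage, 0.16 for endothelial cells, −0.43 for pericytes and fibroblasts, 0.35 for neurons (1 gene) and −0.03 for border macrophages and monocytes.

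**Figure D2:**
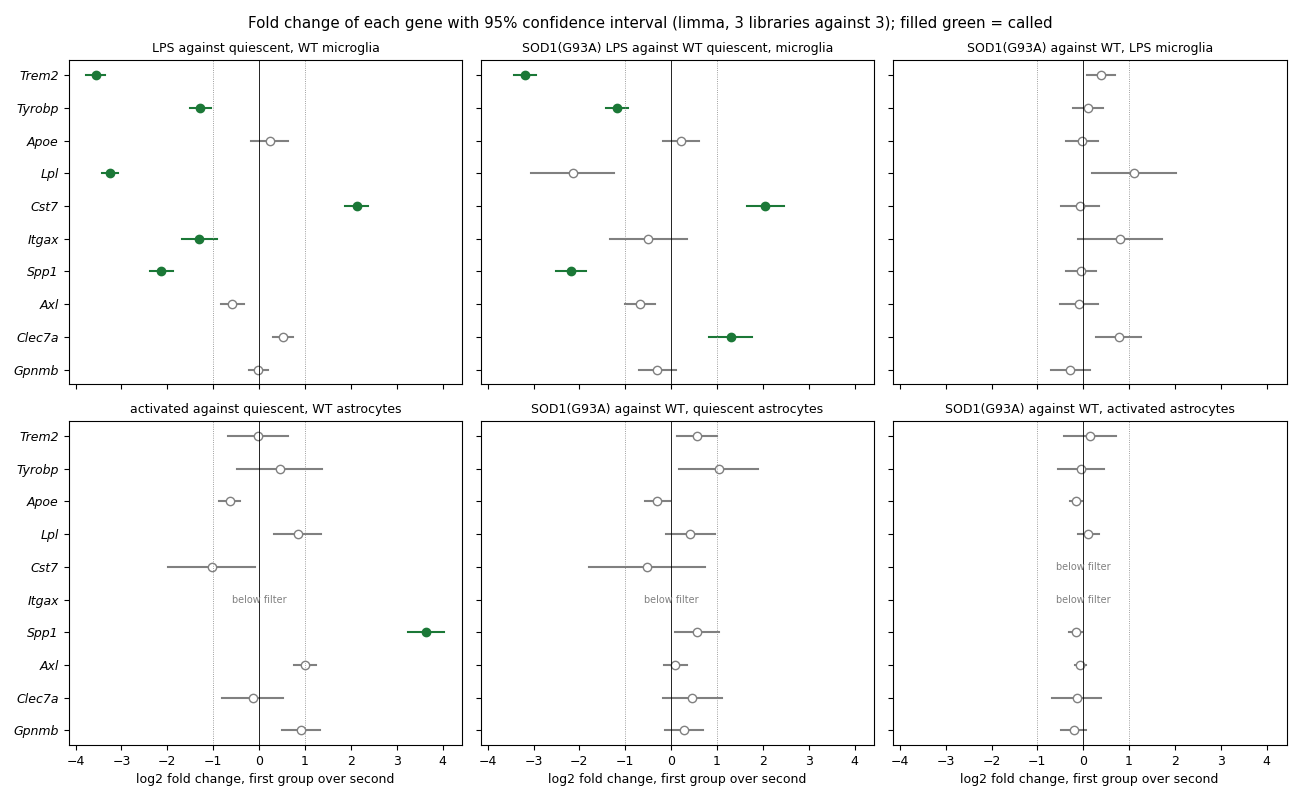
Log2 fold change of each DAM gene with its 95% confidence interval (limma, 3 against 3 libraries) in 6 comparisons. Green symbols mark called genes, and dotted lines mark 2-fold changes. *Trem2* stands at −3.56 under LPS in WT microglia, and *Spp1* at −2.13 there and at 3.64 in activated WT astrocytes.

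Reads of the set in astrocyte cultures were set beside microglia markers. In WT quiescent astrocytes the 17 markers stood at 1.48% to 5.42% of their WT quiescent microglial level, with a median of 1.92%. *Trem2* at 1.41%, *Tyrobp* at 1.46%, *Spp1* at 1.55%, *Lpl* at 1.97%, *Itgax* at 2.08%, *Gpnmb* at 2.59% and *Clec7a* at 3.78% lay below or within that range. Its upper end was *P2ry12* alone, and *Clec7a* stood above the other 16 markers, of which *Itgam* was next at 3.13%. *Axl* at 13.9%, *Cst7* at 19.6% and *Apoe* at 103% lay above it. In WT activated astrocytes the marker range was 1.51% to 6.25%, again with a median of 1.92%. Above that range stood *Cst7* at 8.95%, *Spp1* at 18.7%, *Axl* at 27.1% and *Apoe* at 65.1%, and within or below it *Trem2* at 1.47%, *Tyrobp* at 1.80%, *Itgax* at 3.44%, *Lpl* at 3.38%, *Clec7a* at 3.46% and *Gpnmb* at 4.78%. The upper end was again *P2ry12*, and *Gpnmb* stood above the other 16 markers, of which *Aif1* was next at 3.76%. In *SOD1* G93A quiescent astrocytes the markers ran from 2.15% to 8.62% with a median of 2.89%, and within that range lay *Trem2* at 2.16%, *Spp1* at 2.30%, *Lpl* at 2.61%, *Tyrobp* at 2.71%, *Gpnmb* at 3.16%, *Clec7a* at 5.37% and *Itgax* at 6.01%. *Axl* at 14.98%, *Cst7* at 16.0% and *Apoe* at 85.4% lay above it. *P2ry12* was the upper end in both mutant groups, and above the other 16 markers stood *Clec7a* and *Itgax* in quiescent and *Gpnmb* in activated cells. In *SOD1* G93A activated astrocytes the markers ran from 1.31% to 4.72% with a median of 1.69%. *Trem2* at 1.49%, *Tyrobp* at 1.65%, *Itgax* at 2.64%, *Clec7a* at 2.93%, *Lpl* at 3.51% and *Gpnmb* at 4.01% lay within, and *Cst7* at 14.95%, *Spp1* at 16.2%, *Axl* at 25.2% and *Apoe* at 56.7% above.

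**Figure D3:**
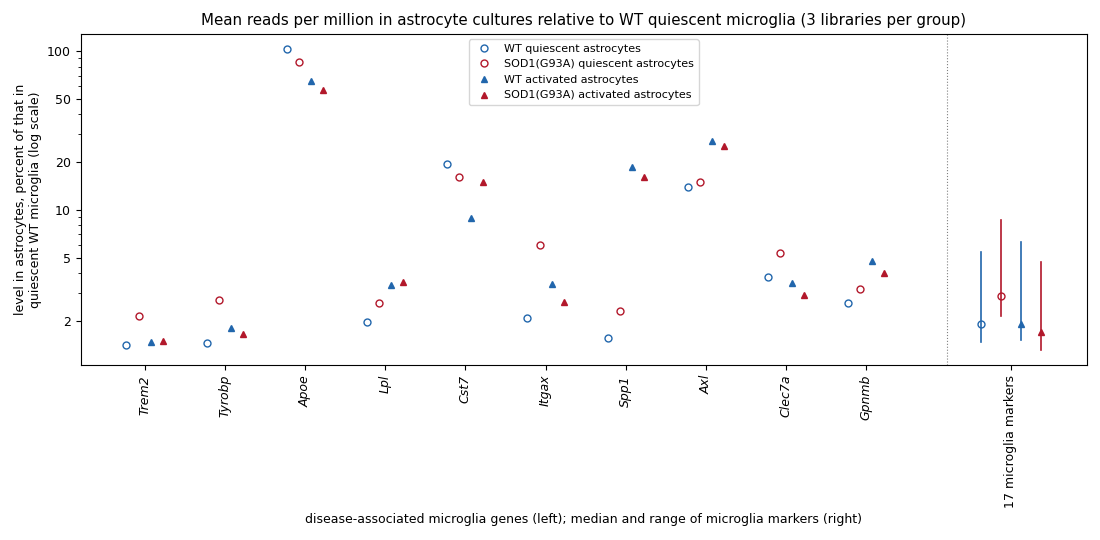
Mean level in each of the 4 astrocyte groups as a percent of the mean in WT quiescent microglia (log scale), for the 10 DAM genes on the left, and the median (symbol) and range (line) of 17 microglia markers on the right. In WT quiescent astrocytes *Apoe* stands at 103% and *Axl* at 13.9%, while the markers run from 1.48% to 5.42%.

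Activation of WT astrocytes with IL-1α, TNFα and C1q asked whether these genes answer outside microglia. Of the 10 members 9 passed the filter, and 1 was called, beside 11.5% of the 12336 genes tested. That 1 was higher, beside 6% of all genes, and 0 were lower, beside 5.54%. At an unadjusted p under 0.05, 6 of the 9 passed, beside 5774 of the 12336 genes. The groups did not overlap for 6 members, beside 50.9% of all genes, and the median change was 0.45 on the log2 scale against 0.01.

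*Spp1* was the member called. Its normalized counts were 186, 241 and 347 in quiescent and 3414, 3083 and 2932 in activated astrocytes. All activated libraries were far higher. Limma gave a log2 change of 3.64 (SE 0.180, limma adjusted p 8.83e-08), or 12.5-fold. In WT microglia under LPS its log2 change was −2.13, and the tables were normalized separately and the difference was not tested.

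*Axl* lay at the fold limit. Its normalized counts were 596, 715 and 793 in quiescent and 1438, 1373 and 1364 in activated astrocytes. All activated libraries were higher and close together. The log2 change was 1.00 (SE 0.106, limma adjusted p 2.25e-05), a 1.995-fold change and so not called. It was called without quiescent replicate 2 (1.02) or 3 (1.09) and without activated replicate 2 (1.01) or 3 (1.01).

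*Gpnmb* had 72.2, 68.2 and 108 normalized counts when quiescent and 138, 182 and 143 when activated. All activated libraries were higher. This was a log2 change of 0.91 (SE 0.188, limma adjusted p 0.00268), and without quiescent replicate 3 it was 1.11 and called (adjusted p 2.6e-05, in a range of 2.6e-05 to 0.0169). *Lpl* had 93.2, 149.6 and 193 normalized counts when quiescent and 223, 305 and 229 when activated, all higher. That gave a log2 change of 0.84 (SE 0.228, limma adjusted p 0.0134), and without quiescent replicate 3 it was 1.07 and called (adjusted p 0.000181, in a range of 0.000181 to 0.0607). With that library left out 4 members were called, beside 1547 of 12348 genes.

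*Apoe* had lower values in all activated libraries, at 12118, 12536 and 13275 normalized counts when quiescent and 7882, 8226 and 8166 when activated. Limma gave a log2 change of −0.64 (SE 0.103, limma adjusted p 0.000473), under 2-fold. *Cst7* was lower too, at 14.0, 17.1 and 10.1 against 3.86, 9.27 and 6.04 normalized counts, with a log2 change of −1.03 (SE 0.427, limma adjusted p 0.0796). *Trem2*, *Tyrobp* and *Clec7a* overlapped between the groups, with log2 changes of −0.02, 0.45 and −0.14. *Itgax* was below the filter, at 2.33, 5.25 and 6.94 against 8.68, 12.8 and 2.59 normalized counts.

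Among the lists, 1 of 7 other stage 1 genes was called higher (*Fth1*, 2.03) with a median of 0.50, and 3 of 15 other stage 2 genes (*Csf1*, 2.67, *Hif1a*, 1.38, and *Cd63*, 1.12) with a median of 0.30. *Angptl4* (4.12) and *Vldlr* (2.09) were called higher of 17 lipid genes, with a median of 0.23. The AXL ligand *Gas6* rose by 1.48 and the sister receptor *Tyro3* fell by 1.28, with a median of 0.65 over 4 genes. Of 10 genes in the list of integrins and osteopontin receptors, *Cd44* (2.29) and *Itga5* (1.37) were called higher, with a median of 0.03. Of 11 cathepsins and relatives *Cstb* was called higher at 1.02 (adjusted p 0.000133), with a median of 0.30. The call of *Cstb* was lost in 8 of 17 alternatives. Its change fell under 2-fold with a pseudocount of 5 (0.98), quantile normalization (1.00) and RPM scaling (1.00) and without quiescent replicate 2 or 3 (1.00 and 0.95). Without activated replicate 1, 2 or 3 its adjusted p was 0.00106, 0.00157 and 0.00151, in a range of 1.12e-06 to 0.00157. By limma, 0 of 14 homeostatic, 13 ITAM, 1 TYROBP-pairing and 3 MITF and TFE genes were called, with 4, 3, 0 and 2 at an unadjusted p under 0.05 and medians of 0.01, 0.06, 0.02 and 0.70.

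Microglia markers summed to 235, 346 and 443 RPM in WT quiescent and 294, 485 and 265 in WT activated astrocytes. *Laptm5* was the most abundant in quiescent replicates 2 and 3 and in all activated libraries. Of 16 tested, limma called 0, 0 had an unadjusted p under 0.05 and 0 had groups that did not overlap, with a median of 0.03. Astrocyte markers summed to 6882 to 8530.1 RPM in WT quiescent and 5841 to 6002 in WT activated libraries, with *Slc1a3* the most abundant. Of 14, *Aldoc* (−1.94), *Fgfr3* (−1.78) and *Hepacam* (−1.15) were called lower, with a median of −0.78. Oligodendrocyte lineage markers summed to 2920 to 3097 and 1099.6 to 1160.4, and *Olig1* (−1.74), *Cnp* (−1.29) and *Olig2* (−1.28) were called lower of 8.

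Endothelial markers summed to 10.7 to 14.6 RPM in WT quiescent and 139 to 155 in WT activated astrocytes, with *Flt1* (4.02, called higher) the most abundant in both and nearly all in the activated, and with *Cldn5* at 0 in both. Pericyte and fibroblast markers summed to 61.0 to 83.9 and 69.6 to 87.8, with *Kcnj8* at 0, and *Lum* (5.42) and *Dcn* (4.14) were called higher and *Acta2* (−1.16) lower of 5. Neuron markers summed to 756 to 985 and 394 to 447, most of it *Map2*, and of 5 tested *Tubb3* (1.03) was called higher and *Map2* (−1.15) lower. Border macrophage and monocyte markers summed to 0.990 to 2.96 RPM, with *Lyve1*, *Ly6c2*, *S100a8* and *S100a9* at 0, and none passed the filter. The call of *Acta2* was lost without quiescent replicate 2 (adjusted p 0.00398) or activated replicate 1 or 3 (0.00356 and 0.00482) and without the intensity trend (0.00608), in a range of 5.82e-08 to 0.00608. That of *Tubb3* was lost without quiescent replicate 2 (adjusted p 0.00135) or activated replicate 1, 2 or 3 (0.00165, 0.00302 and 0.00198) and with a pseudocount of 5 (0.98 on the log2 scale), in a range of 4.69e-05 to 0.00302.

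Genotype in quiescent astrocytes gave 0 members called of 9 tested by limma, beside 0% of 12271 genes, and 4 members had an unadjusted p under 0.05. Over all genes 1068 had an unadjusted p under 0.05, edgeR called 0 and DESeq2 called 7. The groups did not overlap for 3 members, beside 14.6% of all genes, and the median difference was 0.42 on the log2 scale against 0.00.

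The receptor pair was higher in every mutant library. *Trem2* had 36.8, 36.9 and 38.2 normalized counts in WT and 66.7, 54.6 and 47.4 in *SOD1* G93A quiescent astrocytes. Its log2 difference was 0.57 (SE 0.196, limma adjusted p 0.484). *Tyrobp* had 14.7, 41.0 and 54.8 normalized counts in WT and 68.8, 66.1 and 66.7 in mutant libraries. WT replicate 1 was well below the rest, and the log2 difference was 1.03 (SE 0.390, limma adjusted p 0.505). Without that library it was 0.49 (adjusted p 0.37, in a range of 0.247 to 0.994), the smallest of all alternatives. *Apoe* was lower in every mutant library, at 12776, 13059 and 13761 against 11195, 11019 and 9962 normalized counts, with a log2 difference of −0.30 (SE 0.123, limma adjusted p 0.529). *Itgax*, below the filter, had 2.46, 5.47 and 7.19 against 14.8, 16.2 and 11.9 normalized counts, higher in the mutant.

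The other members overlapped between the genotypes. *Spp1* had 196, 252 and 359.5 against 444, 431 and 299 normalized counts, with a log2 difference of 0.56 (limma adjusted p 0.515). *Lpl* stood at 0.42, *Clec7a* at 0.46, *Gpnmb* at 0.28, *Axl* at 0.09 and *Cst7* at −0.53. Microglia markers summed to 541, 579 and 375 RPM in the mutant quiescent libraries. All 16 microglia markers tested were above 0, with a median of 0.56 and 0 called by limma, and 5 had an unadjusted p under 0.05. Their part in the differences of *Trem2* and *Tyrobp* was not tested.

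Every list had 0 genes called by limma in this comparison, with 0 to 6 genes per list at an unadjusted p under 0.05. Medians were 0.32 and 0.20 for other stage 1 and stage 2 DAM genes, 0.35 for homeostatic, 0.36 for ITAM, 0.25 for lipid and 0.22 for AXL genes, 0.02 for integrins, 0.31 for cathepsins and −0.15 for MITF and TFE factors, and the 1 TYROBP-pairing gene tested stood at 0.59. The other markers had medians of −0.22 for astrocytes, 0.01 for oligodendrocyte lineage, −0.70 for endothelial cells (1 gene), −0.54 for pericytes and fibroblasts and 0.11 for neurons. In the mutant quiescent libraries these lists summed to 6002 to 7382, 3296 to 3548, 7.98 to 8.96, 40.1 to 55.5 and 918 to 1005.5 RPM.

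In activated astrocytes 0 of 8 members tested were called between the genotypes by limma, beside 0.645% of 12098 genes, 0.521% higher and 0.124% lower in the mutant. An unadjusted p under 0.05 was found for 2 of the 8 members and 2464 of the 12098 genes, and edgeR and DESeq2 called 84 and 83 genes over all beside 78 in limma. The groups did not overlap for 1 member, beside 24.1% of all genes, and the median difference was −0.10 against −0.00. That 1 was *Apoe*, at 6791, 7099 and 7000.0 normalized counts in WT and 5948, 6367 and 6397 in mutant libraries. Each mutant library was lower by a small amount. Its log2 difference was −0.16 (SE 0.0586, limma adjusted p 0.115).

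*Spp1*, the member that activation raised most, had 2941, 2661 and 2513 normalized counts in WT and 2335, 2572 and 2311 in mutant activated astrocytes. The groups overlapped, with a log2 difference of −0.17 (limma adjusted p 0.145). Of the remaining members tested, *Trem2* stood at 0.15, *Lpl* at 0.11, *Tyrobp* at −0.05, *Axl* at −0.06, *Clec7a* at −0.14 and *Gpnmb* at −0.21, and *Cst7* and *Itgax* were below the filter. Microglia markers summed to 367, 251.4 and 272 RPM in the mutant activated libraries, and limma called 0 of 16, with a median of −0.13 and 0 at an unadjusted p under 0.05.

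One list gene was called here, the LPL inhibitor gene *Angptl4*, lower in the mutant. Its normalized counts were 72.3, 59.1 and 51.7 in WT and 11.6, 26.4 and 12.2 in *SOD1* G93A activated astrocytes. The groups were well apart. The log2 difference was −1.89 (SE 0.273, limma adjusted p 9.55e-05), and the call was lost without WT activated replicate 1 (−1.76, adjusted p 0.00309) and without the intensity trend (0.0431, in a range of 8.73e-08 to 0.0431). No other gene of the lists was called by limma, and 0 to 5 genes per list had an unadjusted p under 0.05. List medians were −0.08 and −0.03 for other stage 1 and stage 2 DAM genes, −0.13 for homeostatic, −0.25 for ITAM, 0.05 for lipid and 0.09 for AXL genes. They were −0.04 for integrins, −0.07 for cathepsins and 0.33 for MITF and TFE factors. Marker medians were 0.12 for astrocytes, 0.05 for oligodendrocyte lineage, −0.30 for endothelial cells (1 gene), −0.25 for pericytes and fibroblasts and −0.36 for neurons, with 0 called by limma and 0 to 9 per list at an unadjusted p under 0.05. In the mutant activated libraries these lists summed to 5952 to 6073, 1073 to 1137, 113 to 119, 55.9 to 58.5 and 394 to 427 RPM.

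Whether activation differed between the genotypes was tested with an interaction term in limma over the 12 astrocyte libraries. It called 0 of 9 members, beside 0% of 12279 genes. An unadjusted p under 0.05 was found for 2 members and 1018 genes, and edgeR called 4 genes over all. These 2 were *Spp1*, at −0.73 on the log2 scale (SE 0.249, limma adjusted p 0.409), and *Tyrobp*, at −1.08 (SE 0.495, limma adjusted p 0.581). The adjusted p of *Spp1* ran from 0.033 to 0.757 over the alternatives, lowest without WT quiescent replicate 3 (−0.97). That of *Tyrobp* ran from 0.223 to 0.875, and its log2 value from −1.46 to −0.54. WT quiescent replicate 1 held 6 reads of *Tyrobp*. The member median was −0.41 against 0.00, and that of 16 microglia markers −0.73, with 16 of 16 below 0. *Cst7* stood at 1.21, *Apoe* at 0.14, *Axl* at −0.16, *Lpl* at −0.32, *Trem2* at −0.41, *Gpnmb* at −0.49 and *Clec7a* at −0.61. Every list had 0 genes called by limma and 0 to 6 at an unadjusted p under 0.05. Medians ran from −0.65 (ITAM genes) to 0.14 (MITF and TFE factors) in the gene lists. The other markers stood at 0.30 for astrocytes, 0.40 for endothelial cells (1 gene), 0.08 for pericytes and fibroblasts, −0.05 for oligodendrocyte lineage and −0.09 for neurons.

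Patterns over the 7 conditions were compared among 11220 genes by the root mean square difference of their centred mean log2 levels. Nearest to *Trem2* were *Havcr2* (0.144) and *Map3k9* (0.237), and nearest to *Tyrobp* were *Fxyd5* (0.130) and *Cyth4* (0.151). For *Apoe* they were *Tomm34* (0.0898) and *Ccdc117* (0.109), and for *Lpl* *Ctsd* (0.296) and *Cebpa* (0.337). *Cst7* had *Clec4a2* (0.221) and *Samhd1* (0.233), *Itgax* had *Sash3* (0.260), and *Axl* had *Sdf2l1* (0.149) and *Ppp1r18* (0.158). *Clec7a* lay nearest *Gpr84* (0.172) and *Naip2* (0.236), and *Gpnmb* nearest *Tgfb1* (0.169) and *Hmga2-ps1* (0.188). For *Spp1*, *Ptchd1* stood at 0.605. Among the members themselves the closest were *Trem2* and *Lpl* (0.447) and then *Tyrobp* and *Gpnmb* (0.488), and the farthest were *Apoe* and *Clec7a* (2.35).

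The 10 genes lie on 6 chromosomes of the mouse build GRCm38. On chromosome 7 are *Tyrobp* (30413760 to 30417585), *Apoe* (19696109 to 19699188), *Itgax* (128129547 to 128150657) and *Axl* (25757273 to 25788705), and on chromosome 6 *Clec7a* (129461591 to 129472779) and *Gpnmb* (49036546 to 49070929). *Trem2* lies on chromosome 17 (48346401 to 48354147), *Lpl* on 8 (68880491 to 68907448), *Cst7* on 2 (150570415 to 150578944) and *Spp1* on 5 (104435118 to 104441050). *Spp1* alone shares exon sequence with another annotated gene, *Gm42793*, on the same strand, and *Clec7a* is annotated as a polymorphic pseudogene.

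Promoter sequence was matched for 8 of the 10 members, in 12 entries from 250 bases before to 50 after the start, taken from RefSeq on GRCm38.p6. *Tyrobp* and *Lpl* had no entry. Motifs were searched on both strands: the AP-1 motif TGANTCA, in 7.81% of 32851 mouse promoters, the PU.1 core GAGGAA, in 28.3%, the E-box CACGTG of MITF and TFE factors, in 7.15%, and the NF-κB motif, GGGA and TTCC with 2 free bases between them, in 1.47%. AP-1 matches were found for *Trem2*, *Cst7*, *Itgax* and *Gpnmb*, and PU.1 core matches for *Trem2*, *Apoe*, *Spp1*, *Axl* and *Clec7a*. The E-box and the NF-κB motif had no match in these windows, and no motifs overlapped. A match describes the letters only.

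Printed here, with motif matches in capitals, are the promoters of members that LPS moved most in microglia or activation moved in astrocytes. *Trem2* (chr17:48346151-48346450, plus strand) holds a PU.1 core on the minus strand at bases 211 to 216 and an AP-1 match at 242 to 248. *Cst7* (chr2:150570165-150570464, plus strand), the member called higher, holds an AP-1 match that begins at base 245. *Itgax* (chr7:128129300-128129599, plus strand) holds an AP-1 match that begins at base 195. The first of the 2 entries of *Spp1* (chr5:104434861-104435160, plus strand) holds a PU.1 core at bases 138 to 143.
Trem2: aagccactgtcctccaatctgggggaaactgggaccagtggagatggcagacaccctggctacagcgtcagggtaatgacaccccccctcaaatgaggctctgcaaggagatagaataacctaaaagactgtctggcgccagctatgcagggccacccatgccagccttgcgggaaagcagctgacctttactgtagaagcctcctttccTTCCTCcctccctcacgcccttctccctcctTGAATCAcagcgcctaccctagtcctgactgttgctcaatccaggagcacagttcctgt
Cst7: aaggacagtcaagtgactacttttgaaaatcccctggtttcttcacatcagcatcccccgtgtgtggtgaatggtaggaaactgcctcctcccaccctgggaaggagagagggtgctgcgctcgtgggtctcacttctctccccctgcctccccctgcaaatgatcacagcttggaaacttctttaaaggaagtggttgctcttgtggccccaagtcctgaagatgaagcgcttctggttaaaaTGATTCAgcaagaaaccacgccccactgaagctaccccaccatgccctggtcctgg
Itgax: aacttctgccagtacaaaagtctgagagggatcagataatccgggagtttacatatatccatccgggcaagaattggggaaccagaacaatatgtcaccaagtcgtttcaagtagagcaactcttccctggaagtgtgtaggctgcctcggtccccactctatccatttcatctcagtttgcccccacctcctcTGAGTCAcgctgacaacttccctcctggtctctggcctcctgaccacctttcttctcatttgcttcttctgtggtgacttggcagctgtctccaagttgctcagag
Spp1: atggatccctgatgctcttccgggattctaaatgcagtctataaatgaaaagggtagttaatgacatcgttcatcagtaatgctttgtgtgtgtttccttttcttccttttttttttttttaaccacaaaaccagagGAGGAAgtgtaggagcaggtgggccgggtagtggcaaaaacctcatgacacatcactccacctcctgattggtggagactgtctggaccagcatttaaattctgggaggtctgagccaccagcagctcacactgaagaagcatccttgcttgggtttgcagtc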

How the data were processed

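The authors aligned strand-specific, polyA-enriched libraries to mm10 with STAR 2.7.3a, counted reads with RSEM and normalized with DESeq2, per the submitters' notes. The deposited tables give this normalized signal for each library, next to comparison columns (mean, log2 fold change, SE, test score, p and adjusted p) that were not used. Dividing each library by its unit recovered whole reads, within 0.001 reads, for 878796 of 878796 values (100%), and 15 of 15 library columns repeated between tables held identical reads. Each comparison was fitted on its own table, 3 against 3 libraries, with limma 3.58.1 in R 4.3.3 and an intensity trend on log2(normalized count + 1), for genes with a mean of at least 10, with Benjamini-Hochberg adjustment over all genes tested. Genes were called at an adjusted p under 0.001 and more than 2-fold. The interaction used median-ratio scaled reads of 12 libraries. RPM (reads-per-million) values are whole reads scaled to library totals, and lengths are from GENCODE M21 (GRCm38), since the authors' annotation is not named.

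The members and lists were chosen with earlier results of these data known. Named are the 10 members, up to 3 called genes of each list with the largest absolute log2 fold change, and, for likeness, the 2 genes nearest each member among those with at least 10 RPM in a condition. Some of these neighbours are not reported here. Alternatives were pseudocounts of 0.5 and 5, no filter, at least 10 in every library, quantile and TMM scaling, limma without trend, edgeR 4.0.16, DESeq2 1.42.0, an adjusted p of 0.05 with and without the fold limit, a replicate block and leaving out each library. RPM scaling was added after seeing the data. The fits were tested on simulated data. Tables and plots used Python 3.11.15, pandas 2.3.3, numpy 2.4.6, scipy 1.17.1 and matplotlib 3.10.9.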

Additional observations from a re-analysis of the deposited data

How the results depend on the processing

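Of the log2 fold changes of members recomputed under the alternatives, 1031 kept their direction and their side of the limits, 29 reversed, 10 passed the limits and 7 no longer did. Reversals were among changes that were not called, and their cause was not tested. Quantile normalization gave *Apoe* −0.32 under LPS in WT and −0.28 in *SOD1* G93A against WT quiescent microglia, where RPM scaling gave −0.0098. In activated WT astrocytes, edgeR and DESeq2 gave *Trem2* 0.10 and 0.084. The other reversals came from leaving out 1 library, and the ranges over leaving out each library in turn follow. Between genotypes in quiescent astrocytes *Cst7* ran from −0.89 to 0.17 and *Axl* from −0.012 to 0.18. In activated WT astrocytes *Trem2* ran from −0.34 to 0.30, *Tyrobp* from −0.10 to 0.82 and *Clec7a* from −0.42 to 0.11. Between genotypes in activated astrocytes *Trem2* ran from −0.17 to 0.48, *Tyrobp* from −0.25 to 0.19 and *Clec7a* from −0.39 to 0.14. Under LPS in WT microglia *Gpnmb* ran from −0.093 to 0.028. Between genotypes under LPS *Tyrobp* ran from −0.023 to 0.21, *Apoe* from −0.12 to 0.12, *Cst7* from −0.19 to 0.15, *Spp1* from −0.19 to 0.056 and *Axl* from −0.22 to 0.092. In *SOD1* G93A LPS against WT quiescent microglia *Apoe* ran from −0.0038 to 0.34.

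Counts of called members moved by more than 1.5 times in 5 of 130 recomputations, all in activated WT astrocytes. There the count of 1 became 5 of 9 at an adjusted p under 0.05 with no fold limit, beside 4722 of 12336 genes. Leaving out 1 library gave 1 to 4 there, beside 1087 to 1547 calls over all genes. In *SOD1* G93A LPS against WT quiescent microglia the same step gave 4 to 7 members, beside 1263 to 2187 calls over all genes. Under LPS in WT microglia it gave 6 to 6, beside 1991 to 2334. In the other comparisons it gave 0 to 0, beside at most 81. List counts moved in 50 of 1300 recomputations, and 46 of 70 mean levels moved by more than 1 SD under TMM scaling over all libraries. Over all genes, the 78 calls between genotypes in activated astrocytes became 1 without the intensity trend, and the 0 calls of the interaction became 3 with a pseudocount of 5, 4 in edgeR, and 6 and 1 without WT quiescent astrocyte replicate 1 and 3.

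Replicates of the same number did not go together in any comparison, with correlations of −0.436 to 0.0587 and so none above 0.1. The lowest, −0.4 and −0.436, were those of replicates 1 and 3 between genotypes in quiescent astrocytes. There WT replicate 1 correlated best with mutant replicate 3, and WT replicate 3 with mutant replicate 1. What these libraries share was not tested. A fit with the replicate number as block called *Lpl* in *SOD1* G93A LPS against WT quiescent microglia (−2.14, adjusted p 0.000781), and so 6 members. Depth limits *Itgax* and *Cst7* in astrocytes, where they rest on 1 to 31 reads, and with 3 libraries a group some small differences may be missed. Each table was normalized on its own, so changes in microglia and astrocytes stand on separate scales.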
